A study of Mus musculus with 4 samples.

Results

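The carbonic anhydrase genes Car1, Car2, Car3, Car4, Car5b, Car6, Car8, Car12 and Car13 were picked by name as 9 of the 31053 genes of the count matrix. They were listed with their levels in these cells known, so their levels and the order of the classes are a description. The matrix is 1 library, deposited as 4 sequencing entries, of cells digested from 2 tibiae of 1 male mouse at postnatal day 6 (P6). The mouse carried the Col10a1Cre driver, the Rosa26-Tdtomato reporter, 1 Irx3 allele of the Δ type (Irx3 +/Δ) and 1 Irx5 null allele (Irx5 +/-), and was labelled as the Irx3/5 heterozygous control. All cells come from this mouse, and there is no wild-type mouse beside it. Cre is driven from the gene of collagen X, so that the reporter marks hypertrophic chondrocytes (HCs) and the cells that descend from them. The paper writes the Irx3 allele as ΔHC, so Irx3 may be deleted only in cells where Cre has acted. Differences between cells of HC descent and other cells cannot be told apart from such a difference in Irx3.

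Carbonic anhydrases convert carbon dioxide and water into bicarbonate and a proton, and back. The catalytic members hold a zinc ion with histidines in the active site. Carbonic anhydrases I and II (Car1 and Car2) are abundant soluble enzymes of red blood cells, where they work beside the anion exchanger Slc4a1. In osteoclasts, carbonic anhydrase II supplies the protons that the vacuolar ATPase pumps onto the bone surface, and loss of the enzyme is a known cause of osteopetrosis. Car3 encodes a soluble enzyme of low activity best known from muscle, liver and fat. Car4 and Car12 encode enzymes at the cell surface, Car5b a mitochondrial enzyme, Car6 a secreted enzyme known from saliva, and Car13 a further soluble enzyme. Car8 encodes a related protein without catalytic activity that binds the inositol trisphosphate receptor.

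A short coding stretch around the first zinc-binding histidine is shown for 8 of the 9 genes, because it holds a residue that catalysis needs and shows how far the catalytic members differ there. Each runs 5′ to 3′ on the coding strand, was read from the GENCODE vM21 transcripts of GRCm38, and has the codon of that histidine in capitals.
Car1: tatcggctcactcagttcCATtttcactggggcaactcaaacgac
Car2: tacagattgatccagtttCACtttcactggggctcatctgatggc
Car3: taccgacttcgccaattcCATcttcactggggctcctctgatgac
Car13: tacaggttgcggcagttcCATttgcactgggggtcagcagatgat
Car5b: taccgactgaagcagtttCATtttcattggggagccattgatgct
Car12: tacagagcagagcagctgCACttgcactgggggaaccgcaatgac
Car4: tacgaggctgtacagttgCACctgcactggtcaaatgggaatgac
Car6: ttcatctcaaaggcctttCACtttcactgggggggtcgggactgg
With positions counted from 1 at the 5′ end of the stretch and Car2 as the reference, Car1, Car3, Car5b and Car13 carry C21T, which leaves a histidine codon. Of the 45 bases, the number that differ from those of Car2 is 11 for Car3, 12 for Car13, 13 for Car5b, 16 for Car1, 18 for Car12, 20 for Car6 and 22 for Car4. Over the whole coding sequences, identity among the 36 pairs of the 9 genes ran from 54.2% to 66.1%, and was highest for Car1 and Car13.

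Of the 9 genes, 4 lie side by side on chromosome 3 of GRCm38 within 259 kb, in the order Car13 (ENSMUSG00000027555, chr3:14641727-14663002, plus strand), Car1 (ENSMUSG00000027556, chr3:14766216-14808368, minus strand), Car3 (ENSMUSG00000027559, chr3:14863512-14872523, plus strand) and Car2 (ENSMUSG00000027562, chr3:14886273-14900770, plus strand). The coding stretches above lie in exon 3 of these 4 genes, at chr3:14650688-14650732, chr3:14776263-14776307, chr3:14866832-14866876 and chr3:14895051-14895095. Car8 (ENSMUSG00000041261, chr4:8143362-8239041, minus strand) and Car6 (ENSMUSG00000028972, chr4:150187015-150201332, minus strand) lie far apart on chromosome 4, and the stretch of Car6 is in exon 3 at chr4:150197369-150197413. Car12 (ENSMUSG00000032373, chr9:66713686-66766845, plus strand) holds its stretch in exon 4 at chr9:66747629-66747673. Car4 (ENSMUSG00000000805, chr11:84957786-84966044, plus strand) holds it in exon 4 at chr11:84964149-84964193, and Car5b (ENSMUSG00000031373, chrX:163976822-164027997, minus strand) in exon 4 at chrX:163991396-163991440. Neighbours on chromosome 3 had unlike patterns in these cells, since Car1 and Car2 were highest in erythroid-like cells, Car3 in mature osteoblast-like cells and Car13 in macrophage-like cells.

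The matrix holds 158281984 UMIs (unique molecular identifiers, which tag single captured transcripts) over 14181 barcodes, with 500 to 85279 UMIs per barcode. Of these barcodes, 8255 passed the limits on genes per cell, mitochondrial and ribosomal share, with a median of 13957 UMIs and 3301 genes. They fell into 30 clusters, from which 20 classes with 8067 cells were named by marker genes and 188 cells stayed unnamed. The level of a gene in a class is its summed UMIs per 1000000 UMIs of all genes in that class (CPM), and intervals are exact 95% intervals of counting error only. Since cells of 1 library are not replicates, differences between classes were not tested. Haemoglobin transcripts were found in cells of every class. Of the 7636 cells kept outside the erythroid-like classes, 274 had at least 1% of their UMIs from haemoglobin genes, and Scrublet marked 86 of these as doublets. Values of Car1 and Car2 outside the erythroid-like cells are therefore given with and without these haemoglobin-rich cells.

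Each detected gene had its highest level in a different place, except that Car1 and Car2 shared the erythroid-like cells and Car8 and Car12 the pre-hypertrophic chondrocyte-like (pre-HC-like) cells. Car2 was the most abundant, with 46257 UMIs in the cells kept, followed by Car3 with 7964, Car1 with 7030, Car12 with 4786, Car8 with 2369, Car6 with 533, Car13 with 469 and Car5b with 174. Car4 had no UMI in any of the 14181 barcodes. The captured 3′ tags make these totals comparable between genes only roughly. The share of a gene's UMIs in all cells kept that lay in its highest class was 83.7% for Car3 in mature osteoblast-like cells, 82.2% for Car6 in HC-like cells, 56.7% for Car2 in late erythroid-like cells, 54.9% for Car8 and 51.9% for Car12 in pre-HC-like cells, and 39.2% for Car1 in early erythroid-like cells. For Car13 and Car5b it was 10.4% and 10.3%, and these low genes had no class that stood apart.

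**Figure D1:**
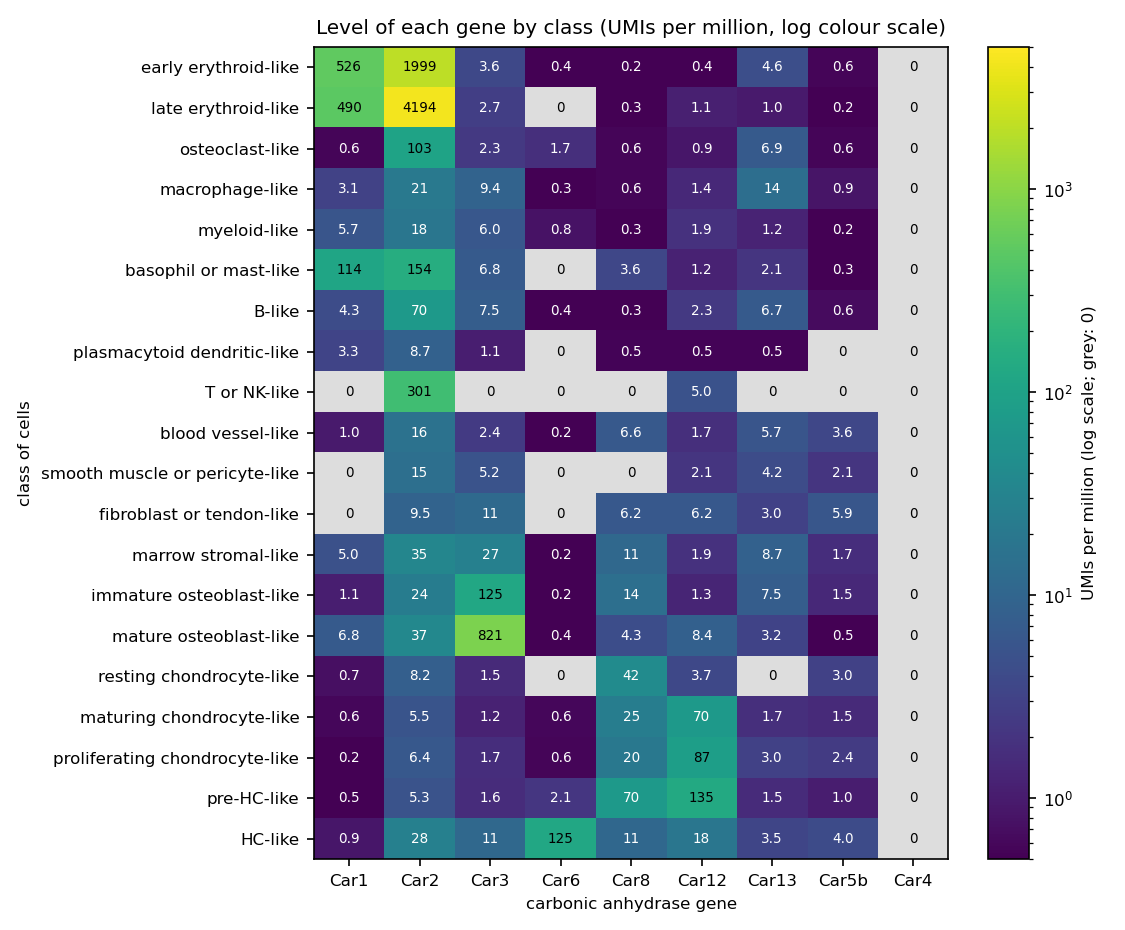
Level of each carbonic anhydrase gene (columns) in each of the 20 named classes of cells (rows), in CPM on a log colour scale, with grey for 0. Outside the erythroid-like classes only cells under 1% haemoglobin UMIs are counted. Car2 reached 4194 in late erythroid-like cells, Car3 821 in mature osteoblast-like cells, Car12 135 in pre-HC-like cells and Car6 125 in HC-like cells, while the Car4 column is 0 throughout.

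Red cell precursors were the first place to look for Car1 and Car2. The early erythroid-like class (156 cells) had 7 of 8 early markers at 10 CPM or more, and the late class (463 cells) all 10 late markers. The early markers summed to more in the late class (1945 CPM) than in the early one (830 CPM). The names came from mean z-scores of the marker lists, with no cut on haemoglobin. The late list held the haemoglobin genes Hba-a1, Hba-a2, Hbb-bt and Hbb-bs, so the haemoglobin shares that follow are not independent of the names. Haemoglobin took a median of 0.149% of a cell's UMIs in the early and 34.0% in the late class. Of the 156 early cells, 42 had at least 1%. The early class also held 7 of 8 B cell markers at 10 CPM or more, summing to 348 CPM, and 20 of its cells were marked as doublets. The part of these cells in the levels below was not tested.

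Car1 stood at 526 CPM (506 to 546) in early and 490 CPM (473 to 507) in late erythroid-like cells. The levels were close, with a log2 ratio of late to early of -0.10 (-0.18 to -0.03), where 1 CPM was added to each level. Car2 stood at 1999 CPM (1961 to 2038) in the early and 4194 CPM (4143 to 4245) in the late class, a log2 ratio of 1.07 (1.04 to 1.10). Car2 was the only one of the 2 carbonic anhydrase genes with enough counts that passed 2-fold in this comparison. Over all 7042 genes with enough counts, 7.80% were at least 2-fold higher in the late class and 41.7% at least 2-fold lower, and the median log2 ratio was -0.77. Haemoglobin took up much of the late class's UMIs. With haemoglobin UMIs left out of the totals, Car2 was at 6022 against 2059 CPM and the log2 ratio of Car1 became 0.38, with the sign turned. With a finer clustering (resolution 1.5) no carbonic anhydrase gene passed 2-fold.

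Car2 was found in every erythroid-like cell, whereas Car1 was not. At the depth of each cell, Car1 had a UMI in 80.1% of early and 71.7% of late cells, and after each cell was thinned to 5000 UMIs in 56.5% (48.3 to 64.5) and 59.6% (55.0 to 64.1). In macrophage-like cells, a type that should lack Car1, the thinned share was 1.29%. Among early cells the level of Car1 ran from 0 to 2904 CPM with a median of 207, and that of Car2 from 474 to 4213 CPM with a median of 2076. Among late cells Car1 ran from 0 to 3470 CPM with a median of 246, and Car2 from 1045 to 8171 CPM with a median of 4194. No cell of either class was without Car2, while some cells of both had no Car1 UMI.

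Ordered by haemoglobin, the erythroid-like cells showed Car2 climbing from bin to bin over the non-haemoglobin UMIs, while Car1 did not follow one direction. In CPM over the non-haemoglobin UMIs, Car2 was at 1941 in the 114 cells under 1% haemoglobin, 3471 in 60 cells at 1 to 10%, 5217 in 157 cells at 10 to 30%, 6899 in 225 cells at 30 to 50% and 9062 in 63 cells at 50% or more. Car1 was at 582 (560 to 605), 533 (494 to 574), 728 (690 to 767), 691 and 413 in the same bins, highest in the middle and lowest in the last, and the ratio of Car2 to Car1 UMIs went from 3.33 to 22.0. Over all UMIs, Car2 was at 1938, 3267, 4176, 4140 and 3942 CPM in these bins, so it rose up to the bin at 10 to 30% and not beyond. Many haemoglobin-rich barcodes had too few genes to be kept as cells, and they were counted apart. Of the barcodes under the minimum of genes, 170 were at 10 to 50% haemoglobin, 674 at 50 to 80% and 435 at 80% or more. In CPM over the non-haemoglobin UMIs, Car2 was at 6906, 9892 and 7355 there and Car1 at 372, 132 and 37.3. Over all UMIs, Car2 was at 4092, 3238 and 873 CPM. The ratio of Car2 to Car1 UMIs was 18.6, 74.8 and 197. Barcodes left out with at least 10% haemoglobin held 31.1% of all Car2 UMIs of the matrix but 5.19% of all Car1 UMIs. These barcodes had a median of 842, 1052.5 and 372 genes in the order given, so whether each was a single cell was not tested.

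Partner genes of carbon dioxide and bicarbonate transport, listed with earlier results of these data known, moved in both directions over the same cells. Of 25 such genes 13 had enough counts, with 3 at least 2-fold higher in the late class, 4 at least 2-fold lower and 6 neither. Their median log2 ratio was 0.33. The shares over all genes with enough counts were 7.80% higher and 41.7% lower, with a median of -0.77. The 3 higher were Slc4a1, the chloride-bicarbonate exchanger of the red cell membrane (log2 ratio 3.61), Rhd, of the Rhesus complex (1.73), and the water channel Aqp1 (1.49). The 4 lower were the anion exchanger Slc26a1 (-4.12), the sodium-bicarbonate cotransporter Slc4a7 (-1.83), the proton pump subunit Atp6v1b2 (-1.16) and Ostm1, a partner of the chloride transporter Clcn7 (-1.03). In CPM over the non-haemoglobin UMIs, Slc4a1 went from 10.6 under 1% haemoglobin to 6521 at 50% or more, a far steeper course than that of Car2 in the same bins. Rhag, which forms a gas channel of red cells, went from 175 to 704, and Aqp1 from 251 to 1657.

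**Figure D2:**
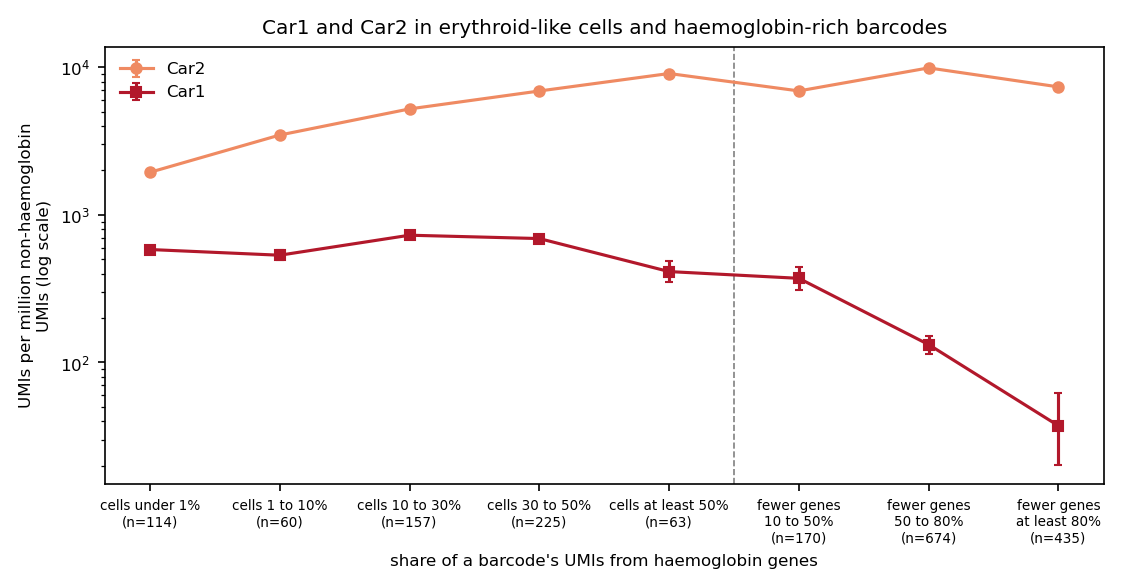
Car1 and Car2 in CPM over the non-haemoglobin UMIs (y axis, log scale) in erythroid-like cells and, right of the dashed line, in barcodes with fewer genes than the minimum of 1600, by the share of UMIs from haemoglobin genes (x axis). Points are summed counts and bars exact 95% counting intervals. Car2 went from 1941 to 9062 across the cells, and Car1 from 582 to 413 and then to 37.3 in the barcodes richest in haemoglobin.

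Outside the erythroid-like classes, much of the Car2 signal lay in haemoglobin-rich cells. The 274 such cells held 6158 Car2 UMIs, against 3384 in the 7362 other cells under 1% haemoglobin. Leaving them out took Car2 from 210 (198 to 224) to 34.7 CPM (29.3 to 40.8) in marrow stromal-like cells, from 79.8 to 16.3 CPM in blood vessel-like cells, from 75.1 to 18.4 CPM in myeloid-like cells and from 197 (183 to 211) to 103 CPM (92.6 to 114) in osteoclast-like cells. In the haemoglobin-rich cells themselves the ratio of Car2 to Slc4a1 UMIs differed between classes. It was 1.77 in the osteoclast-like, 1.56 in the myeloid-like, 1.46 in the marrow stromal-like, 1.09 in the mature osteoblast-like, 0.929 in the basophil or mast-like, 0.833 in the pre-HC-like and 0.68 in the B-like class, beside 2.03 in late erythroid-like cells, and 2 macrophage-like and 3 immature osteoblast-like cells had no Car2 UMI. The ratio also varied with haemoglobin. In erythroid-like cells, Car2 and Slc4a1 had 9955 and 4087 UMIs at 10 to 30% haemoglobin, and 3271 and 2354 at 50% or more. In barcodes under the minimum of genes they had 15416 and 14281 at 50 to 80%, and 2763 and 3226 at 80% or more. When haemoglobin-rich cells were left out, Car2 hardly changed in B-like cells (71.5 and 70.2 CPM), macrophage-like cells (20.6 and 20.8 CPM) and immature osteoblast-like cells (23.5 and 23.7 CPM). Whether haemoglobin-rich cells were doublets, attached red cells or free RNA was not tested.

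**Figure D3:**
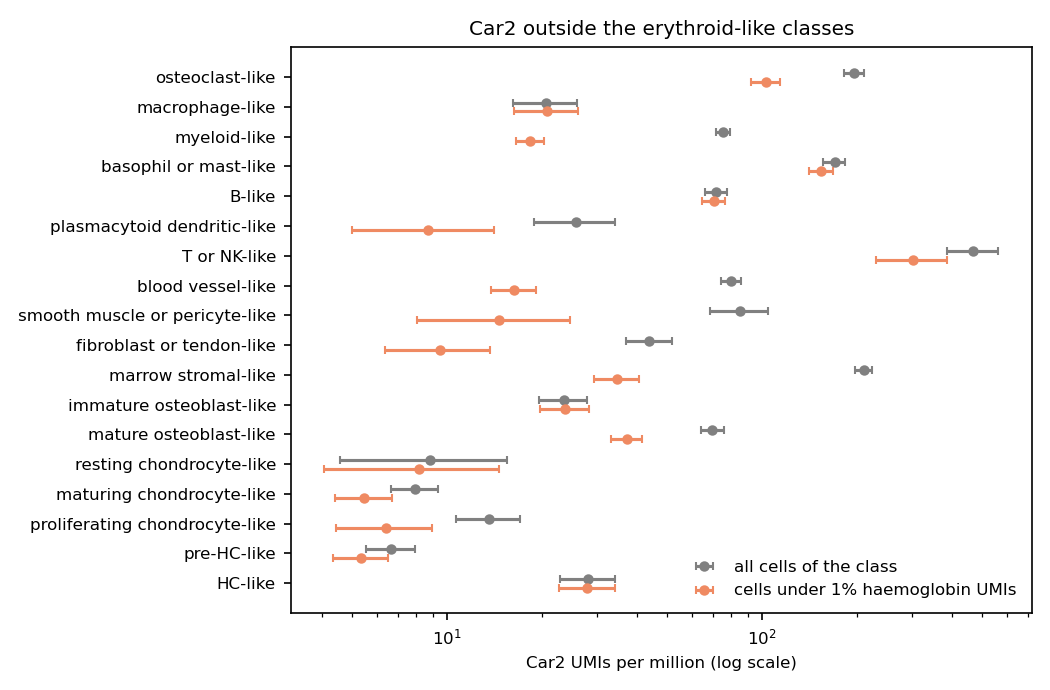
Car2 in CPM (x axis, log scale) for the 18 classes outside the erythroid-like cells (y axis), with exact 95% counting intervals, in all cells of each class (grey) and in cells under 1% haemoglobin UMIs (orange). Without the haemoglobin-rich cells, T or NK-like, basophil or mast-like, osteoclast-like and B-like cells had the highest levels, at 301, 154, 103 and 70.2.

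Several blood cell classes kept Car2 without the haemoglobin-rich cells. T or NK-like cells were highest at 301 CPM (229 to 387), though from 60 UMIs in 27 cells. Basophil or mast-like cells stood at 154 CPM (141 to 168) and B-like cells at 70.2 CPM (64.4 to 76.4), while plasmacytoid dendritic-like cells were at 8.71 CPM (4.98 to 14.2). The intervals of these 4 classes do not overlap. After thinning, Car2 had a UMI in 27.4% (23.8 to 31.2) of B-like cells and 36.0% (28.9 to 43.5) of basophil or mast-like cells, against 3.11% of maturing chondrocyte-like cells. The B-like UMIs were spread over 291 of 736 cells with at most 17 in a cell.

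Without haemoglobin-rich cells, Car1 was above 10 CPM in 1 class outside the erythroid-like cells. With them, marrow stromal-like cells were at 17.9 and myeloid-like cells at 10.2 CPM too, against 4.96 and 5.73 CPM without, and blood vessel-like cells went from 9.41 to 0.978 CPM. Basophil or mast-like cells held 114 CPM (103 to 126) in 172 cells under 1% haemoglobin, and 109 CPM in all 179. The class also held markers of other cells, with 5 of 8 early erythroid markers at 10 CPM or more (447 CPM summed, against 830 CPM in the early erythroid-like class), all 7 promyelocyte or progenitor markers (2840 CPM) and 2 of 6 megakaryocyte markers (918 CPM), and their part in the Car1 level was not tested. The UMIs came from few cells, since 28 of the 179 had any and the 3 highest of the 172 held 92, 41 and 39 of 384. After thinning, Car1 was found in 11.8% (7.45 to 17.5) of the class. Cells with Car1 were more often cells with Car2, as 26.6% of the 64 cells with a Car2 UMI after thinning had Car1, against 4.39% of the cells without one. The next level of Car1 without haemoglobin-rich cells was 6.78 CPM in mature osteoblast-like cells. All 30 T or NK-like cells, with 3 haemoglobin-rich ones counted in, had none in 247252 UMIs, which allows up to 12.1 CPM.

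Osteoclast-like cells carried more Car2 than macrophage-like cells, the nearest class of the same lineage. The class (155 cells) had 6 of 8 osteoclast markers at 10 CPM or more, summing to 6390 CPM against 601 CPM in macrophage-like cells, with Calcr at 0. Car2 was at 197 against 20.6 CPM, a log2 ratio of 3.19 (2.86 to 3.54), and at 103 against 20.8 CPM without haemoglobin-rich cells, a log2 ratio of 2.25 (1.90 to 2.62). In the macrophage-like class 37 of the 73 Car2 UMIs lay in 1 cell. Of all 7315 genes with enough counts in this comparison, 5.35% were at least 2-fold higher in the osteoclast-like class and 13% at least 2-fold lower. Car2 was the only carbonic anhydrase gene with enough counts here, so the count of 1 of 1 says nothing about the family. The difference depended on which cells were kept and how they were clustered. Under a mitochondrial limit of 5% with new clusters the log2 ratio was -1.49 (44 against 94 cells), and with haemoglobin-rich cells also left out -0.037. With the carbonic anhydrase genes among the clustering genes it was 0.35.

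Within the osteoclast-like class, Car2 differed between sub-clusters. It was at 237 CPM (206 to 272) in the 33 cells led by Ctsk, which digests bone collagen, Acp5 and Atp6v0d2, none of them rich in haemoglobin. The 68 cells led by Acp5 and S100a4 had 49.3 CPM (38.1 to 62.7), also with no haemoglobin-rich cell. The remaining 54 cells had 295 CPM, but 11 of them were rich in haemoglobin and held 399 of the 485 Car2 UMIs. Slc4a1 stood at 140 CPM in the 54 cells, against 12.6 CPM in the 33 cells. Under 1% haemoglobin and at a mitochondrial share of at most 5%, Car2 was at 53.5 CPM (35.9 to 76.9) in 19 of the 54 cells. Under the same limits it was at 27.1 CPM in 18 of the 68 cells and 106 CPM in 2 of the 33 cells. Osteoclast markers summed to 13987 CPM in the 33 cells, 3964 CPM in the 68 cells and 4323 CPM in the 54 cells. Macrophage markers summed to 13.7, 1308 and 629 CPM in the same order. Top2a, a gene of dividing cells, had a UMI in 24.2%, 47.1% and 94.4% of them. These sub-clusters were split from a cluster of 408 cells that had been named macrophage-like. The 33 cells had a higher mitochondrial share than the 68 cells (median 6.70% against 5.69%), and 2 of the 33 lay at or under a limit of 5%.

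The acid-secreting machinery that works with carbonic anhydrase II was measured beside it. Of 25 partner genes 17 had enough counts, with 5 at least 2-fold higher in osteoclast-like cells, 2 at least 2-fold lower and 10 neither, at a median log2 ratio of 0.34 against 0.01 over all genes. The proton pump subunits Atp6v0d2 (452 against 33.3 CPM, log2 ratio 3.72) and Atp6v1b2 (575 against 226 CPM, 1.34) were higher, and so was Slc4a2, the exchanger that removes bicarbonate from osteoclasts (137 against 25.1 CPM, 2.40). Slc4a1 (2.61) and Rhd (1.87) were higher too, both red cell genes. Without haemoglobin-rich cells, Slc4a1 was at 8.01 CPM in osteoclast-like and 9.11 CPM in macrophage-like cells and was no longer higher. Tcirg1, the osteoclast subunit of the pump, did not reach 2-fold (383 against 213 CPM, 0.84), nor did the chloride transporter Clcn7 (69.9 against 55.1 CPM, 0.34). The lactate transporter Slc16a3 (-1.40) and the scaffold Slc9a3r1 (-1.42) were lower. In the 33 Ctsk-rich cells Atp6v0d2 was at 889 CPM and Slc4a2 at 231 CPM, against 310 and 94.0 CPM in the 68 cells with less Car2.

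Car3 was largely a gene of mature osteoblast-like cells. It stood at 796 CPM (777 to 815) in the 400 cells of that class, 125 CPM (116 to 134) in 395 immature osteoblast-like cells and 32.5 CPM (27.7 to 38.0) in 408 marrow stromal-like cells, in steps whose intervals do not overlap. No other class passed 12 CPM. After thinning, Car3 had a UMI in 84.8% (80.8 to 88.1), 25.5% (21.3 to 30.2) and 10.1% (7.31 to 13.5) of cells of these 3 classes, beside 3.03% of B-like cells. The level among mature osteoblast-like cells ran from 0 to 3307 CPM, with quartiles of 272, 651 and 1139. In immature osteoblast-like cells the 3 highest cells held 20.9% of 688 Car3 UMIs, while in the mature class the 3 highest held 3.97% of 6422, both counted under 1% haemoglobin.

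The log2 ratio of Car3 between mature and immature osteoblast-like cells was 2.66 (2.55 to 2.78). Car8 went the other way, from 14.3 to 4.18 CPM, a log2 ratio of -1.56 (-2.07 to -1.06). At a mitochondrial share of at most 5% with classes kept, Car8 was no longer called, and 2 genes were higher and 0 lower. Car2 was higher in the mature class with all cells counted (69.6 against 23.5 CPM, log2 ratio 1.53), but at 37.2 against 23.7 CPM it no longer passed 2-fold without haemoglobin-rich cells. Of those 291 Car2 UMIs in mature cells, 70 and 65 lay in 2 cells, and 2 of the 3 highest cells were marked as doublets. All 3 carbonic anhydrase genes with enough counts thus passed 2-fold, 2 higher and 1 lower, before haemoglobin-rich cells were left out. Over all 8333 genes with enough counts, 4.21% were at least 2-fold higher and 17.8% at least 2-fold lower in the mature class, and the median log2 ratio was -0.46.

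Re-clustering the osteogenic cells placed the peak of Car3 before the osteocyte-like end of the lineage. It was at 969 CPM (943 to 995) in 277 cells led by Bglap3, Bglap and Ifitm5, where 96.4% of cells had a UMI, and Car3 itself was among the leading genes of that group. In 17 cells led by Pdpn, Dmp1, Phex and Sost, genes of osteocytes, it was at 65.9 CPM (36.9 to 109), from 15 UMIs. Cycling cells followed the same order, with 537 CPM in 85 cells that were mostly mature and 83.5 CPM in 119 that were mostly immature. It was 65.8 CPM in 293 cells led by Postn, Vcan and Aspn, 59.6 CPM in 59 cells led by Mmp9 and Cd55, and 22.7 CPM in 200 stromal cells led by Cxcl14 and Cxcl12. Some small sub-clusters were led by genes of other cell types, and they held Car3 levels between those of the immature and the mature cells, such as 188 CPM in 51 cells led by Lyz2 and S100a8.

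The partner genes changed less than Car3 between mature and immature osteoblast-like cells. Of 25 partner genes 15 had enough counts, with 2 at least 2-fold higher, 2 at least 2-fold lower and 11 neither. Their median log2 ratio was -0.09. The shares over all genes with enough counts were 4.21% higher and 17.8% lower, with a median of -0.46. The 2 higher were the red cell genes Slc4a1 (37.4 against 6.69 CPM) and Rhd (14.2 against 2.53 CPM), in a class where 19 of 400 cells were rich in haemoglobin. Without haemoglobin-rich cells, Slc4a1 was at 5.88 against 5.29 CPM and did not pass 2-fold. The 2 lower were the proton pump subunits Tcirg1 (-1.34) and Atp6v1b2 (-1.02). Ptprz1 and Ptprg encode receptor phosphatases with a carbonic anhydrase-like outer domain. Ptprz1 was higher in the mature class (66.2 against 13.8 CPM, log2 ratio 2.19), and Ptprg lower (19.6 against 40.5 CPM, -1.01).

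Among the chondrocyte-like classes, Car12 and Car8 were highest before hypertrophy and Car6 in hypertrophic cells. The classes were resting (122 cells), maturing (902), proliferating (180), pre-HC-like (647) and HC-like (105). Car12 was at 3.69 CPM (1.20 to 8.62) in resting, 70.2 (66.3 to 74.2) in maturing, 87.4 (79.7 to 95.7) in proliferating, 134 (129 to 139) in pre-HC-like and 18.2 CPM (14 to 23.2) in HC-like cells. After thinning it had a UMI in none of 120 resting cells (up to 3.03%), 22.6% of maturing, 31.7% of proliferating, 41.2% of pre-HC-like and 3.81% of HC-like cells, beside 1.51% of B-like cells. Of the 64 Car12 UMIs in HC-like cells, 22 lay in 1 cell.

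Car8 had a different order from Car12. It was at 42.1 CPM (31.9 to 54.5) in resting, 25.2 (22.9 to 27.7) in maturing, 20.3 (16.7 to 24.5) in proliferating, 70.1 (66.4 to 74.1) in pre-HC-like and 10.8 CPM (7.63 to 14.8) in HC-like cells. Resting cells, which had next to no Car12, were thus second in Car8, and the intervals of maturing and proliferating cells overlap. The clusters inside a class differed as well. Among pre-HC-like cells, Car8 was at 108 CPM (99.5 to 116) in the 179 cells led by Ihh, Cdkn1c and Sgms2 and 52.3 CPM (48.4 to 56.5) in the 468 cells led by Il17b. Car12 was closer between them, at 147 (138 to 158) and 128 CPM (121 to 134). Among maturing cells, Car8 was at 49.96 CPM (44.8 to 55.6) in the 344 cells led by Il11, Krt16 and F3 and 9.58 CPM (7.82 to 11.6) in the 558 cells led by Nfatc2, Matn1 and Ucma. Car12 had the reverse order there, with 54.7 and 79.9 CPM.

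Car8 was found more often in pre-HC-like cells with Car12 than in those without. After thinning, 102 of the 285 cells with a Car12 UMI also had Car8 (35.8%), against 18.6% of the cells without one. In maturing cells the shares were 9.48% and 6.24%. Car9, a further surface enzyme gene known from cells short of oxygen and not among the 9 genes, went the other way in pre-HC-like cells. It was found in 7.06% of cells with a Car12 UMI and 13.3% of those without, and Car8 in 11.5% of cells with a Car9 UMI and 25.5% of those without. These shares pool the clusters of each class, which differed in Car8 and Car12, and were not counted within a cluster.

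Car6 was nearly confined to HC-like cells, the class that makes collagen X. It had 438 UMIs in the 105 cells, or 124 CPM (113 to 136), against 39 UMIs and 2.10 CPM (1.5 to 2.88) in pre-HC-like cells and at most 1.72 CPM in any other class. At full depth 60 of the 105 HC-like cells had a UMI, and after thinning 33.3% (24.4 to 43.2) did, beside 0.774% of pre-HC-like cells. The UMIs were spread, with at most 22 in a cell and 13.8% in the 3 highest cells. The HC-like name rests on Col10a1. F13a1 and Fn1, which are on the monocyte list, were also among the 10 leading genes of this cluster.

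The log2 ratio of HC-like to pre-HC-like cells was 5.33 (4.99 to 5.68) for Car6, -2.82 (-3.18 to -2.48) for Car12 and -2.59 (-3.05 to -2.16) for Car8. Car2 was also past 2-fold (28.1 against 6.64 CPM, log2 ratio 1.93), but 70 of its 97 UMIs in HC-like cells under 1% haemoglobin lay in 1 cell. Without the 3 highest cells Car2 was at 5.47 CPM (3.24 to 8.65) there, against 5.34 CPM in pre-HC-like cells under 1% haemoglobin. Of the 4 carbonic anhydrase genes with enough counts, 2 were higher, Car2 among them, and 2 lower. Over all 7357 genes with enough counts, 22.0% were at least 2-fold higher in HC-like cells and 6.33% at least 2-fold lower, with a median log2 ratio of 0.43. Car9 was also highest in pre-HC-like cells, at lower levels than Car12 in the chondrocyte-like classes other than the resting one. It was at 7.39 CPM in resting, 12.6 in maturing, 17.2 in proliferating, 19.5 in pre-HC-like and 1.70 CPM in HC-like cells.

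**Figure D4:**
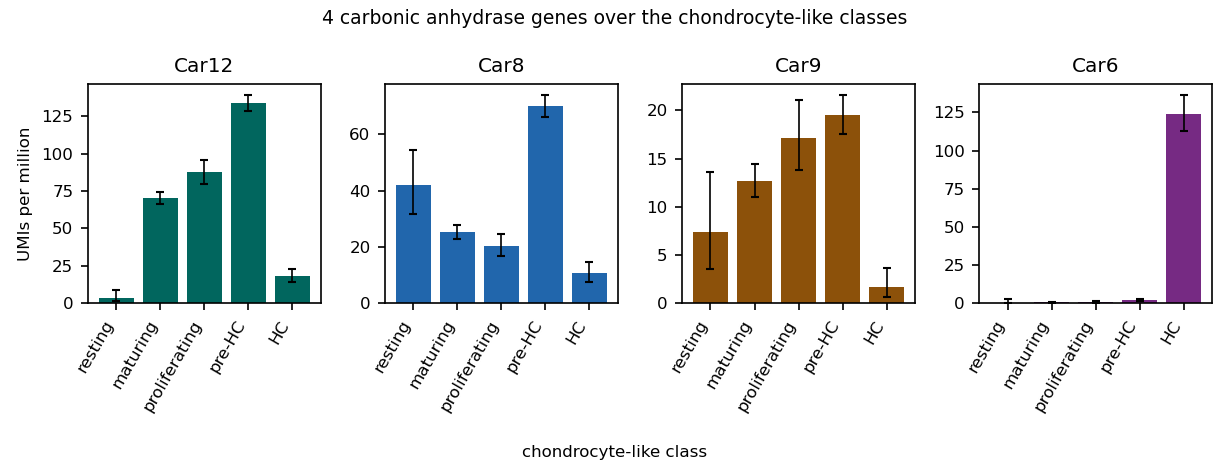
Car12, Car8, Car9 and Car6 (panels) in CPM (y axes, each from 0 on its own scale) over the 5 chondrocyte-like classes, with exact 95% counting intervals. Car12, Car8 and Car9 were highest in pre-HC-like cells, at 134, 70.1 and 19.5, and Car6 was at 124 in HC-like cells and at most 2.10 in the others.

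Ordered by Col10a1 instead of by class, the chondrocyte-like cells again had the most Car6 and the least Car12 and Car8 at the hypertrophic end. Cells were binned by Col10a1 UMIs per 10000 UMIs, from 1333 cells with none through 358 cells at up to 1, 107 cells at 1 to 10 and 101 cells at 10 to 100 to 57 cells above 100. Car6 was at 1.03, 0.890, 7.44, 47.0 and 137 CPM in these bins. Car8 was at 40.1, 45.1, 69.2, 49.9 and 7.63 CPM, highest in the middle bin at 1 to 10. Car12 was at 92.4, 108, 101, 82.5 and 14.7 CPM and Car9 at 16.1, 16.5, 17.5, 5.77 and 2.54 CPM. In the bin at 10 to 100, 23.8% of cells had a Car6 UMI and 57.4% a Car12 UMI, and in the bin above 100 the shares were 64.9% and 24.6%. How often the same cell had both was not counted in these bins, and in the HC-like class 3 of 105 cells did after thinning. By class, 37 of the 101 cells and 50 of the 57 cells were HC-like, so the last bin lay mostly within that class and the one before it did not.

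Of 25 partner genes 10 had enough counts between HC-like and pre-HC-like cells, with 2 at least 2-fold higher, 2 at least 2-fold lower and 6 neither, at a median log2 ratio of -0.04. Over all genes with enough counts, 22.0% were at least 2-fold higher and 6.33% at least 2-fold lower. The proton pump subunits Atp6v1b2 (56.4 against 15.4 CPM, log2 ratio 1.81) and Tcirg1 (14.5 against 3.56 CPM, 1.76) were higher in HC-like cells. Both were highest in osteoclast-like cells, at 575 and 383 CPM. The blood cell gene Ptprc was at 10.2 CPM in the HC-like cluster, against 1.19 and 1.17 CPM in the pre-HC-like clusters. The part of RNA from blood cells was not tested. The sulphate transporter Slc26a2, needed for cartilage matrix, was lower (96.1 against 336 CPM, -1.79), and so was the lactate transporter Slc16a3 (110 against 288 CPM, -1.37).

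Reporter UMIs allowed carbonic anhydrase genes to be compared between osteogenic cells above and below a cut, used as a mark of descent from HCs. Cells with more than 14 UMIs of WPRE, a sequence of the reporter transcript, counted as HC-derived, which gave 293 HC-derived and 910 other osteogenic cells. Not every HC-like cell passed this cut (89 of 105). The cut takes no account of depth, and HC-derived cells had a median of 15832 UMIs against 12753 in the others. In immature osteoblast-like cells the medians were 14914.5 and 11878. The part of depth in the differences below was not tested. Car3 was at 534 CPM (515 to 554) in HC-derived and 347 CPM (337 to 357) in other osteogenic cells, a log2 ratio of 0.62 (0.55 to 0.69). Car8 was at 16.3 against 5.54 CPM, a log2 ratio of 1.41 (1.0 to 1.81), from 88 and 74 UMIs. Of the 3 carbonic anhydrase genes with enough counts, 1 was at least 2-fold higher and none at least 2-fold lower, where over 8085 genes 0.656% were higher and 1.25% lower. None of the 16 partner genes with enough counts passed 2-fold. No carbonic anhydrase gene passed 2-fold under 5 of the alternatives tried. Under a mitochondrial limit of 5% with new clusters, the log2 ratio of Car3 was 0.15 (94 against 161 cells). With classes kept it was 0.66 (128 against 368 cells).

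The 2 groups differed in their mix of classes. Mature osteoblast-like cells made up 45.1% of HC-derived and 29.5% of other cells, immature 21.2% and 36.6%, and marrow stromal-like 33.8% and 34.0%. Within classes and under 1% haemoglobin, the difference in Car3 was small in mature cells (904 against 777 CPM, log2 ratio 0.22, 0.15 to 0.29) and larger in immature cells (239 against 93.9 CPM, 1.34, 1.12 to 1.56). In marrow stromal-like cells the interval covered 0 (34.0 against 24.9 CPM, 0.43, -0.13 to 0.98). The immature value rests on few cells, as the 3 highest of 62 HC-derived cells held 33.0% of the 285 Car3 UMIs. Car8 was higher in HC-derived cells in each class, at 22.1 against 6.88 CPM in marrow stromal-like, 36.1 against 8.39 CPM in immature and 6.91 against 2.96 CPM in mature cells, from 15 to 43 UMIs a group.

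Car2 had no settled direction between HC-derived and other cells. It was lower in HC-derived cells with all cells counted (78.0 against 98.3 CPM, log2 ratio -0.33) and higher without haemoglobin-rich cells (47.9 against 26.0 CPM, log2 ratio 0.85). In the immature class under 1% haemoglobin, 38 of the 70 Car2 UMIs of HC-derived cells lay in 1 cell. Car13 was lower in HC-derived cells (3.53 against 6.51 CPM, log2 ratio -0.73), from 19 and 87 UMIs, under the 10 CPM set for a call.

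**Figure D5:**
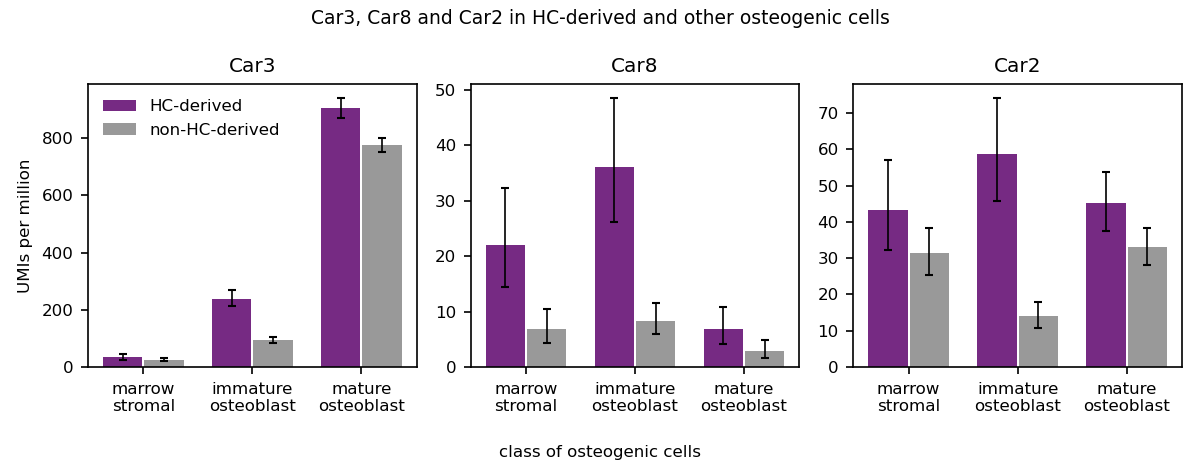
Car3, Car8 and Car2 (panels) in CPM (y axes, each from 0 on its own scale) in HC-derived (purple) and non-HC-derived (grey) cells of the 3 osteogenic classes, under 1% haemoglobin UMIs, with exact 95% counting intervals. Car3 was at 904 and 777 in mature cells and at 239 and 93.9 in immature cells.

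Car13, Car5b and Car4 were at or near the limit of detection. Car13 was highest in macrophage-like cells at 13.8 CPM (10.2 to 18.3), from 49 UMIs in 42 of 234 cells, followed by marrow stromal-like cells at 8.03 CPM (5.71 to 11.0) and immature osteoblast-like cells at 7.42 CPM (5.32 to 10.1). The intervals of the 3 overlap in part, and of the 20 classes only the first was at 10 CPM or more. Car13 was at 4.58 CPM in early and 0.959 CPM in late erythroid-like cells. Car5b was highest in fibroblast or tendon-like cells at 5.77 CPM (3.42 to 9.12) and next in HC-like cells at 3.97 CPM (2.17 to 6.66), from 18 and 14 UMIs. Car4 had 0 of the 137250350 UMIs of the cells kept, which allows a level of up to 0.0219 CPM. A count of 0 limits what was captured and counted here and does not show that the gene is silent.

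The genes whose pattern over the 30 clusters was most like that of each carbonic anhydrase gene were found by Pearson's r of log2(CPM + 1) over 12559 genes. All values come from 1 library and are a description. Haemoglobin-rich cells were kept in, among them an unnamed cluster of 78 cells with a median of 13.4% haemoglobin. The part of such cells in the r values of Car1 and Car2 was not tested. Car1 was closest to Gfi1b (r = 0.907), Bex4, Gata1, Slc25a21 and Mylk3, and Car2 to Ermap (0.965), Ctse, Rhag and Tspo2. Car3 was closest to Slc36a2 (0.851), Cdh15, Chst13, Lipc and Mlip. Car8 was closest to Fgfr3 (0.902), Slc2a13, Atp6v0a4, Proser2 and Cpa6, and Car12 to Il17b (0.956), Comp, BC030870, Wscd2 and Hapln1. Car6, at 10 CPM or more in 1 cluster, was closest to Vtcn1 (0.918), Otog, Ccdc155, Rgn and Dsg2. Between the 6 genes themselves, r was 0.803 for Car1 and Car2, 0.735 for Car8 and Car12, 0.353 for Car6 and Car12 and -0.506 for Car2 and Car8.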

How the data were processed

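UMI counts per gene and barcode were used as deposited by the authors, without normalization. According to the submitters' processing notes and the methods, Cell Ranger 3.1.0 counted reads against mm10, to which sequences of tdTomato and WPRE had been appended, and Seurat 3 was used downstream. No annotation release was given in the sources, so gene positions and coding sequences were taken from GENCODE vM21 on GRCm38 by gene identifier. The counts of tdTomato and WPRE came from a deposited count matrix of exogenous sequences and were joined by barcode. No UMI column was left without a sample.

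Cells with at least 1600 genes (the study's minimum), at most 10% mitochondrial UMIs and at most 50% ribosomal protein UMIs were kept. The tools were scanpy 1.11.5, igraph 0.11.9, scikit-image 0.26.0, scipy 1.17.1, numpy 2.4.6, pandas 2.3.3, matplotlib 3.10.9 and anndata 0.12.19 in Python 3.11.15, with seed 1. After scaling each cell to 10000 counts and taking logs, 2000 variable genes, 30 principal components, 20 neighbours and Leiden resolution 1 gave the clusters. The variable genes held no Mmp gene, no carbonic anhydrase gene and not Pth1r. Osteogenic and osteoclast-like cells were clustered again at resolution 0.6. Scrublet at an expected 10% marked 588 barcodes (4.15%), 460 of them among the cells kept. They stayed in, and were left out in an alternative.

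Clusters took the name of the marker list with the most members among their 10 leading genes by fold, out of the lists that limits on Col1a1, Col2a1 and Ptprc allowed, with at least 3 markers at 10 CPM. Ties went to the highest mean z-score of the list over clusters, which also named 3 clusters with no marker among their leading genes (monocyte, blood vessel and B). This rule and its limits were revised after the clusters had been seen. Neutrophil, monocyte and promyelocyte clusters were pooled as myeloid-like. An erythroid cluster was called early or late by whichever of these marker lists had the higher mean z-score over clusters. The immature osteoblast-like cluster had Alpl and Spp1 of the HC list among its leading genes, and Postn of its own, and the HC-like cluster had Col10a1 of its own and F13a1 and Fn1 of the monocyte list. Rebuilt names may differ from those of the study.

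CPM carried exact Poisson and shares exact Clopper-Pearson intervals at 95%, for counting error only. Thinning to 5000 UMIs left out 360 shallower cells. Log2 ratios were taken with 1 CPM added. A gene was called when it passed 2-fold with at least 10 CPM and 50 UMIs in either class. The upper limit of a count of 0 was set at 3 counts. The steps were tested on simulated data. The 9 genes, the partner genes and the marker lists were chosen with earlier results of these data known, and named genes are those lists, plus for each of the 9 genes at 10 CPM or more the 5 genes most alike over the clusters, of which 1 is not reported here. The haemoglobin limit of 1%, the mitochondrial limit with classes kept, and their combinations with other settings were added after seeing the data, as were the counts of UMIs in the highest cells and of genes found in the same cell. Promoter sequences were not used.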

Additional observations from a re-analysis of the deposited data

How the results depend on the processing

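Each count of carbonic anhydrase genes past 2-fold and each main log2 ratio was recomputed over alternatives, 93 values in all. Of these, 64 stayed within 1.5 times the count or within the counting interval and 27 moved further. The other 2 turned sign from a main log2 ratio of at least 1 in size. Counts were compared by number, not by gene or direction. With new clusters at a mitochondrial share of at most 5%, the osteoclast-like count stayed at 1, but Car2 was called lower there. For Car2 in osteoclast-like against macrophage-like cells (3.19), the log2 ratio was 2.25 without haemoglobin-rich cells, 2.78 at Leiden resolution 0.6 and 2.61 at a mitochondrial share of at most 5% with classes kept. With haemoglobin-rich cells also left out it was 2.22 at resolution 0.6, 2.31 at 1.5, 2.56 with 3000 variable genes and 2.21 with the carbonic anhydrase genes among the variable genes. With those genes among them and all cells counted it was 0.35, and the count fell from 1 to 0. With new clusters at a mitochondrial share of at most 5% the log2 ratio turned to -1.49, and to -0.037 with a count of 0 without haemoglobin-rich cells. There, 2 of the 33 Ctsk-rich cells passed the limit. The cause was not tested.

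Car1 in late against early erythroid-like cells (-0.10) was at -0.22 with a count of 0 at resolution 1.5, at 0.018 at a mitochondrial share of at most 5% with classes kept, and at 0.38 with haemoglobin left out of the totals. The main log2 ratio of Car3 in HC-derived against other osteogenic cells was 0.62 (293 against 910 cells). It was 0.44 with 3000 variable genes (195 against 503 cells). With the carbonic anhydrase genes among the variable genes it was 0.39 (191 against 479 cells). With new clusters at a mitochondrial share of at most 5% it was 0.15 (94 against 161 cells). As a mean of per-cell CPM it was 0.78, and with HC-derived set by at least 1 tdTomato UMI 0.70. The count of 1 gene in that comparison was 0 under all of these alternatives but the mean of per-cell CPM. It was also 0 at a mitochondrial share of at most 5% with classes kept, where the log2 ratio of Car3 was 0.66. With at least 1 UMI in place of the filter, the counts were 2 for late against early erythroid-like and 2 for osteoclast-like against macrophage-like cells. For mature against immature osteoblast-like cells the count was 6. The shares past 2-fold over all genes with a UMI were 34.2%, 16.1% and 17.4% in the same order. Car1 and Car2 were among the 6, with haemoglobin-rich cells counted. The count of 4 genes between HC-like and pre-HC-like cells stayed within 1.5 times under its 12 alternatives. Late against early erythroid-like and mature against immature osteoblast-like cells gave no value at resolution 0.6, with 3000 variable genes, with the carbonic anhydrase genes among them and at a mitochondrial share of at most 5%, since 1 of the classes was not named. No paired analysis was possible because the 4 sequencing entries are 1 library, and no replicate could be left out. Depth limits Car13, Car5b and Car4 most.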

Other observations

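Receptor phosphatases with a carbonic anhydrase-like domain were highest in different classes, and Ptprz1 shared its highest class with Car3. Within that class their places differed. Ptprz1 was among the leading genes of the 17 cells led by Pdpn, Dmp1 and Phex, where Car3 was at 65.9 CPM. In the 277 cells led by Bglap3 and Bglap, Car3 was at 969 CPM. Ptprg was highest in blood vessel-like cells at 142 CPM, which held 55.4% of its UMIs in all cells kept, and next in smooth muscle or pericyte-like cells at 48.8 CPM. Ptprz1 was highest in mature osteoblast-like cells at 66.2 CPM and next in marrow stromal-like cells at 41.0 CPM. Of the other family genes, Car7 was at 4.6 CPM in blood vessel-like cells, its highest class, and Car11 at 5.77 CPM in fibroblast or tendon-like cells. Car10, Car14 and Car15 had 3, 6 and 13 UMIs in the cells of the named classes.

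Among the partner genes, the sulphate transporter Slc26a2 was highest in pre-HC-like cells at 336 CPM and held 274 CPM in proliferating chondrocyte-like cells. Pre-HC-like cells were also highest in the lactate transporter Slc16a3 at 288 CPM and in its chaperone Bsg at 2060 CPM, the same class in which Car12, Car8 and Car9 were highest. The other lactate transporter, Slc16a1, was highest in B-like cells at 211 CPM. Aqp1 was at 745 CPM in late erythroid-like and 415 CPM in fibroblast or tendon-like cells.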
